A study of Mus musculus with 9 samples.

Results

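The 84 genes described here encode proteins of the cytosolic ribosome, 49 of the large subunit (Rpl symbols) and 35 of the small subunit (Rps symbols). They were taken by symbol from the GRCm38 gene annotation, with ribosomal S6 kinases and genes named as pseudogenes left out, and with a minimum of 10 counts summed over 9 libraries. By symbol 88 of the 46517 genes counted matched, and 84 of these reached the minimum. The 4 below it were Rpl3l, Rpl39l, Rpl10l and Rps12l1, with 2, 0, 0 and 3 counts in all. All 84 passed the expression filter that kept 14870 genes for testing. The annotation calls 80 of them protein coding, and the other 4, Rpl6l, Rps3a2, Rps3a3 and Rps4l, are processed pseudogenes with gene-like symbols.

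RNA was sequenced from mouse intestinal stem cells (ISCs) that had been dissociated, embedded in a gel and grown there for 4 days. The gels were non-degradable PEG, degradable PEG and Matrigel, with 3 libraries each. PEG is polyethylene glycol, a synthetic polymer that forms hydrogels, and Matrigel is an extract of basement membrane proteins rich in laminin. Cells in all 3 gels received EGF, noggin, R-spondin, valproic acid (a histone deacetylase inhibitor) and CHIR99021 (a GSK3 inhibitor). The strain, age and genotype of the mice, what was built into the PEG gels, and whether the libraries of a gel came from separate cultures or animals are not stated in the sources used here; the p-values measure the spread between these libraries, which may be technical.

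A ribosome has a small subunit, which reads the mRNA, and a large subunit, which joins amino acids, each a core of ribosomal RNA covered by proteins that are mostly present in a single copy. In vertebrates the mRNAs of these proteins begin with a short run of pyrimidines, the 5′ terminal oligopyrimidine tract, through which their translation follows mTORC1 signalling and the RNA-binding protein Larp1. Proliferating cells of the intestinal crypt have a high demand for new ribosomes.

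The libraries held 38016227 to 47211981 assigned reads, and log2 values of pairs of libraries correlated at 0.991 to 0.995 within a gel and at 0.969 to 0.992 between gels. The 8 epithelial markers tested, such as Epcam, Cdh1 and Vil1, summed to 5524 to 6596 CPM (read counts relative to the scaled library size) in non-degradable PEG and 6015 to 6791 CPM in degradable PEG, against 5236 to 5489 CPM in Matrigel. Of these 8, 3 were higher with non-degradable PEG and 5 with degradable PEG (3 without degradable PEG replicate 2), 0 were lower, and the medians were 0.17 and 0.29. Of all tested genes 16.8% were called in non-degradable and 12.2% in degradable PEG (9.95% without degradable PEG replicate 2). Markers of other tissues were low: the 6 mesenchymal markers summed to at most 9.43 CPM in any library, the 5 blood markers to at most 2.67 CPM, the 3 smooth muscle markers to at most 0.423 CPM and the 3 endothelial markers to at most 0.210 CPM. Among these the defining markers Ptprc, Cdh5, Col3a1 and Dcn were at 0 counts in all libraries, and of the 5 that were tested none passed the test in either PEG gel against Matrigel. Degradable PEG replicate 2 stood apart from the other degradable PEG libraries in its share of reads on ribosomal protein genes, and counts of calls that moved by over 1.5 times without it, and calls that were lost, are given both ways. It was picked by the members' own values, so member calls without it are no separate support. Leaving out another library lowered the member calls to as few as 0 in non-degradable and 4 in degradable PEG. Both comparisons of a PEG gel with Matrigel use the same 3 Matrigel libraries, so their values are set side by side and their likeness is not a result.

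The start sites of 6 members that are described below are printed first, since the tract for which the family is known lies there. The sequences are from RefSeq on GRCm38.p6, on the strand of the gene, with 20 bases before the annotated start and 25 from it. Capitals mark a C followed by at least 5 C or T, with the run beginning within 10 bases of the start, and sequences all in lower case have no such run there.
Rps12, chr10:23787185-23787229, minus strand: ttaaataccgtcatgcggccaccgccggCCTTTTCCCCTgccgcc
Rps15a, chr7:118116123-118116167, minus strand: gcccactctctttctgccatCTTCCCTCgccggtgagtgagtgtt
Rplp2, chr7:141447631-141447675, plus strand: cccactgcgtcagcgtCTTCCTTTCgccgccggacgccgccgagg
Rps27, chr3:90213624-90213668, minus strand: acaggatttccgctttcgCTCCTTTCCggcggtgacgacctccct
Rps7, chr12:28635929-28635973, minus strand: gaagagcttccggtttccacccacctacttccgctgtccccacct
Rps25, chr9:44407694-44407738, plus strand: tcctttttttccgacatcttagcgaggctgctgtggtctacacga
In Rps12 the run has 11 bases and begins 8 bases after the annotated start, and in Rps15a it has 8 bases and begins at the start itself. In Rplp2 and Rps27 runs of 9 bases begin 4 and 2 bases before the start.

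RefSeq promoters, from 250 bases before the start to 50 after it, matched 60 of the 84 members with 71 promoters in all. The 24 not matched included Rpl17, Rpl21, Rpl23a, Rpl29, Rpl3, Rpl30, Rpl32, Rpl36, Rpl6l, Rpl7, Rpl8, Rplp1, Rps14, Rps20, Rps27a, Rps29, Rps3a2, Rps3a3 and Rps4l. A tract began within 3 bases of the start in 33.8% of the member promoters and in 7.21% of all 32851 promoters, and within 10 bases in 47.9% of the member promoters and 19.2% of all. On either strand, the letters CCGGAAG of an ETS site were in 36.6% of member promoters and 8.86% of all, ATGGCG of the YY1 core in 31.0% and 8.93%, and GGGCGG of the Sp1 box in 62.0% and 35.7%. TATAAA was in 9.86% of member promoters and 13.6% of all, CCAAT in 31.0% and 37.4%, the E-box CACGTG in 11.3% and 7.15%, and the CREB site TGACGTCA in 7.04% and 1.79%. The motifs and the window of the tract were picked after other strings and lengths had been searched, a promoter with several motifs was counted for each, and a match of letters is not a bound site.

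Ribosomal protein genes took a smaller share of the reads in non-degradable PEG than in Matrigel. The 84 genes took 2.76%, 2.58% and 2.55% of assigned reads in the non-degradable PEG libraries, against 3.18%, 3.07% and 2.97% in the Matrigel libraries. Each non-degradable PEG library was below each Matrigel library. The means were 2.63% ± 0.113 in non-degradable PEG and 3.07% ± 0.106 in Matrigel (SD, n = 3 each), a difference of -0.444 percentage points with an exact two-sided permutation p of 0.1, the smallest that 3 against 3 libraries allow.

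In degradable PEG the 84 genes took 2.53%, 3.02% and 2.56% of assigned reads, against 3.18%, 3.07% and 2.97% in Matrigel. Replicates 1 and 3 were below the range of Matrigel, and replicate 2 was within it. The means were 2.71% ± 0.275 in degradable PEG and 3.07% ± 0.106 in Matrigel (SD, n = 3 each), a difference of -0.367 percentage points (exact two-sided permutation p = 0.2), and without degradable PEG replicate 2 it was -0.525. Between the PEG gels the difference, non-degradable minus degradable, was -0.0770 percentage points (exact two-sided permutation p = 0.9), and 0.0815 without that library.

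**Figure D1:**
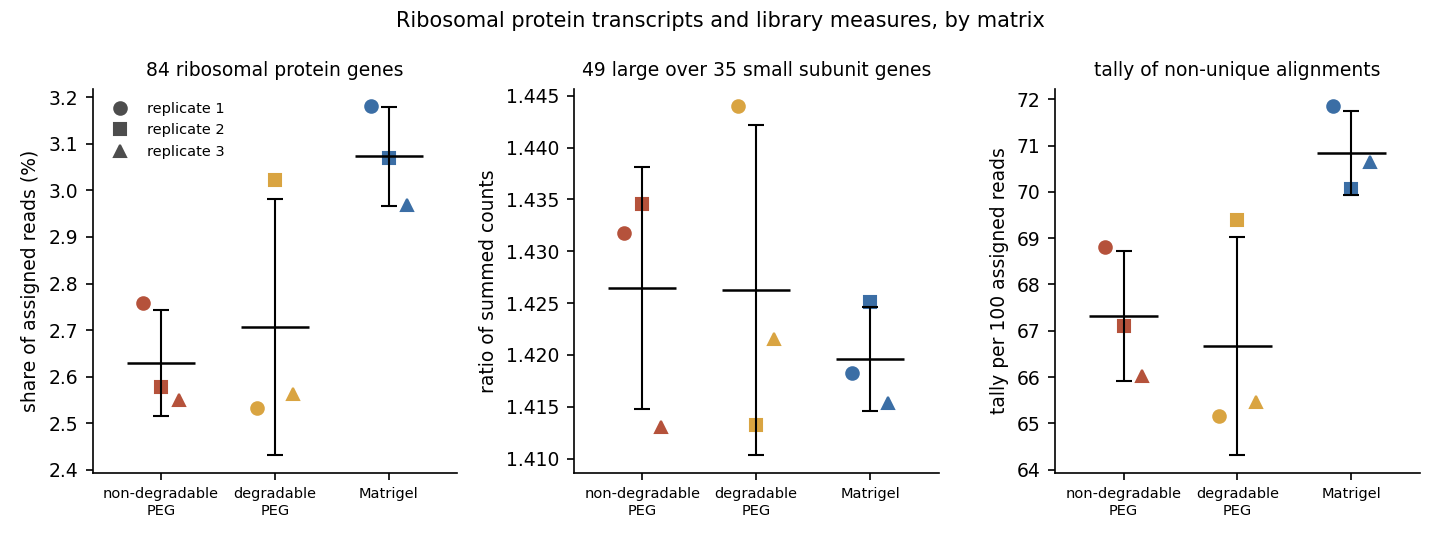
Share of assigned reads on the 84 ribosomal protein genes (%), ratio of the summed counts of 49 large to 35 small subunit genes, and HTSeq's tally of non-unique alignments per 100 assigned reads, for each library of non-degradable PEG, degradable PEG and Matrigel; bars are the mean ± SD of 3 libraries. Non-degradable PEG libraries lie at 2.55% to 2.76% and Matrigel libraries at 2.97% to 3.18%, with degradable PEG replicate 2 at 3.02%, while the subunit ratio lies within 1.41 to 1.44 in all.

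In bulk RNA, fewer cells with a transcript and less of it per cell cannot be told apart. HTSeq's tally of non-unique alignments moved with these shares, at 66.0 to 68.8 per 100 assigned reads in non-degradable PEG and 65.2 to 69.4 in degradable PEG, against 70.1 to 71.8 in Matrigel (exact two-sided permutation p = 0.1 for each). Of 6 markers of secretory and absorptive cells (Lyz1, Muc2, Chga, Dclk1, Alpi and Fabp1) 5 were tested, of which 1 was higher and 2 were lower in non-degradable PEG, and 4 were lower in degradable PEG, against 16.8% and 12.2% of all tested genes called. Without degradable PEG replicate 2, Lyz1 alone of the 5 was lower in degradable PEG, and Muc2, Chga and Fabp1 had adjusted p-values of 0.0730, 0.0619 and 0.0728 (edgeR). Their summed level was 89.5 to 177 CPM in non-degradable PEG and 60.2 to 100.4 CPM in degradable PEG, against 345 to 762 CPM in Matrigel, where most of it was the Paneth cell gene Lyz1. The 5 crypt base markers Lgr5, Ascl2, Olfm4, Smoc2 and Axin2 summed to 1809 to 1913 CPM in non-degradable PEG and 2178 to 2352 CPM in degradable PEG, against 2681 to 2843 CPM in Matrigel. They did not move as one, since Ascl2 was higher in each PEG gel, at 0.76 and 0.92, and Smoc2 was lower in each, at -0.75 and -0.49. Olfm4 and Axin2 were lower in non-degradable PEG, and Axin2 was at 0.21 in degradable PEG (edgeR adjusted p = 0.153, and 0.0296 without degradable PEG replicate 2). In degradable PEG Olfm4 was at -0.78 and Lgr5 at -0.33 (edgeR adjusted p = 0.0916 and 0.127). With the replicate number as a block these were 0.00127 and 0.00949. The part of these in the results was not tested.

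The large subunit genes held 1.41 to 1.43 times the counts of the small subunit genes in non-degradable PEG, 1.41 to 1.44 times in degradable PEG and 1.42 to 1.43 times in Matrigel. The gels overlapped in this ratio (exact two-sided permutation p = 0.4 for non-degradable PEG and 0.7 for degradable PEG against Matrigel, and 1 between the PEG gels).

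Per gene, 22 of the 84 members in non-degradable PEG were lower than in Matrigel and 0 were higher at an adjusted p under 0.05 (edgeR quasi-likelihood test, Benjamini-Hochberg over 14870 genes). This is 26.2% of the members, against 16.8% of all tested genes called, 9.71% higher and 7.13% lower. With the replicate number as a block, which was taken to pair these libraries, 33 members (39.3%) were lower and 0 higher, against 26.1% of all tested genes called. The log2 fold change was below 0 for 82 of 84 members, with a median of -0.21, which is a 13.5% lower level; the median over all tested genes was -0.0021, and with library sizes taken from the members' own counts the members' median was 0.0036, by construction. The members lay close together, with an SD of 0.106 in log2 fold change, against 0.593 over all tested genes. For 59 members, all lower, the CPM of the groups did not overlap, against 43.4% of all tested genes without overlap, 21.8% higher and 21.6% lower. The 22 called members had log2 fold changes of -0.47 to -0.19.

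In degradable PEG 18 of 84 members were lower and 0 higher than in Matrigel by the same test, which is 21.4%, against 12.2% of all tested genes called, 7.42% higher and 4.79% lower. With the replicate block 24 members (28.6%) were lower and 0 higher, against 18.7% of all tested genes called. The log2 fold change was below 0 for 78 of 84, with a median of -0.19, a 12.3% lower level; the median over all tested genes was -0.02, and the members' median was 0.0075 with library sizes from their own counts. The SD over members was 0.137, against 0.569 over all tested genes. For 34 members, all lower, the groups did not overlap, against 30.4% of all tested genes without overlap, 15.6% higher and 14.8% lower. The 18 called members had log2 fold changes of -0.53 to -0.24, and Rpl35a was nearest to the threshold, at an adjusted p of 0.049968.

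The counts of calls depended on single libraries. Without degradable PEG replicate 2, 43 members were lower in non-degradable PEG (51.2%, against 21.5% of all tested genes called) and 38 in degradable PEG (45.2%, against 9.95%), with medians of -0.21 and -0.26. In non-degradable PEG against Matrigel, 12, 6 and 0 members were called without non-degradable PEG replicate 1, 2 or 3, where 11%, 14.2% and 7.88% of all tested genes were. Without degradable PEG replicate 1 or 3 the counts were 29 and 13 (19.5% and 16.1% of all tested genes), and without Matrigel replicate 1, 2 or 3 they were 5, 2 and 14 (9.61%, 10.8% and 12%). In degradable PEG against Matrigel, 11 and 6 were called without degradable PEG replicate 1 or 3, where 15.8% and 7.79% of all tested genes were. Without Matrigel replicate 1, 2 or 3 the counts were 7, 4 and 11 (7.19%, 8.53% and 7.79% of all tested genes), and without non-degradable PEG replicate 1, 2 or 3 they were 12, 12 and 17 (9.9%, 11.2% and 12.5%). The share of members called was below that of all tested genes in 5 of the 9 fits for non-degradable PEG and in 3 of the 9 for degradable PEG. Over these 9 fits the members' median stayed between -0.25 and -0.19 in non-degradable PEG and between -0.26 and -0.14 in degradable PEG, and no fit called a member higher.

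**Figure D2:**
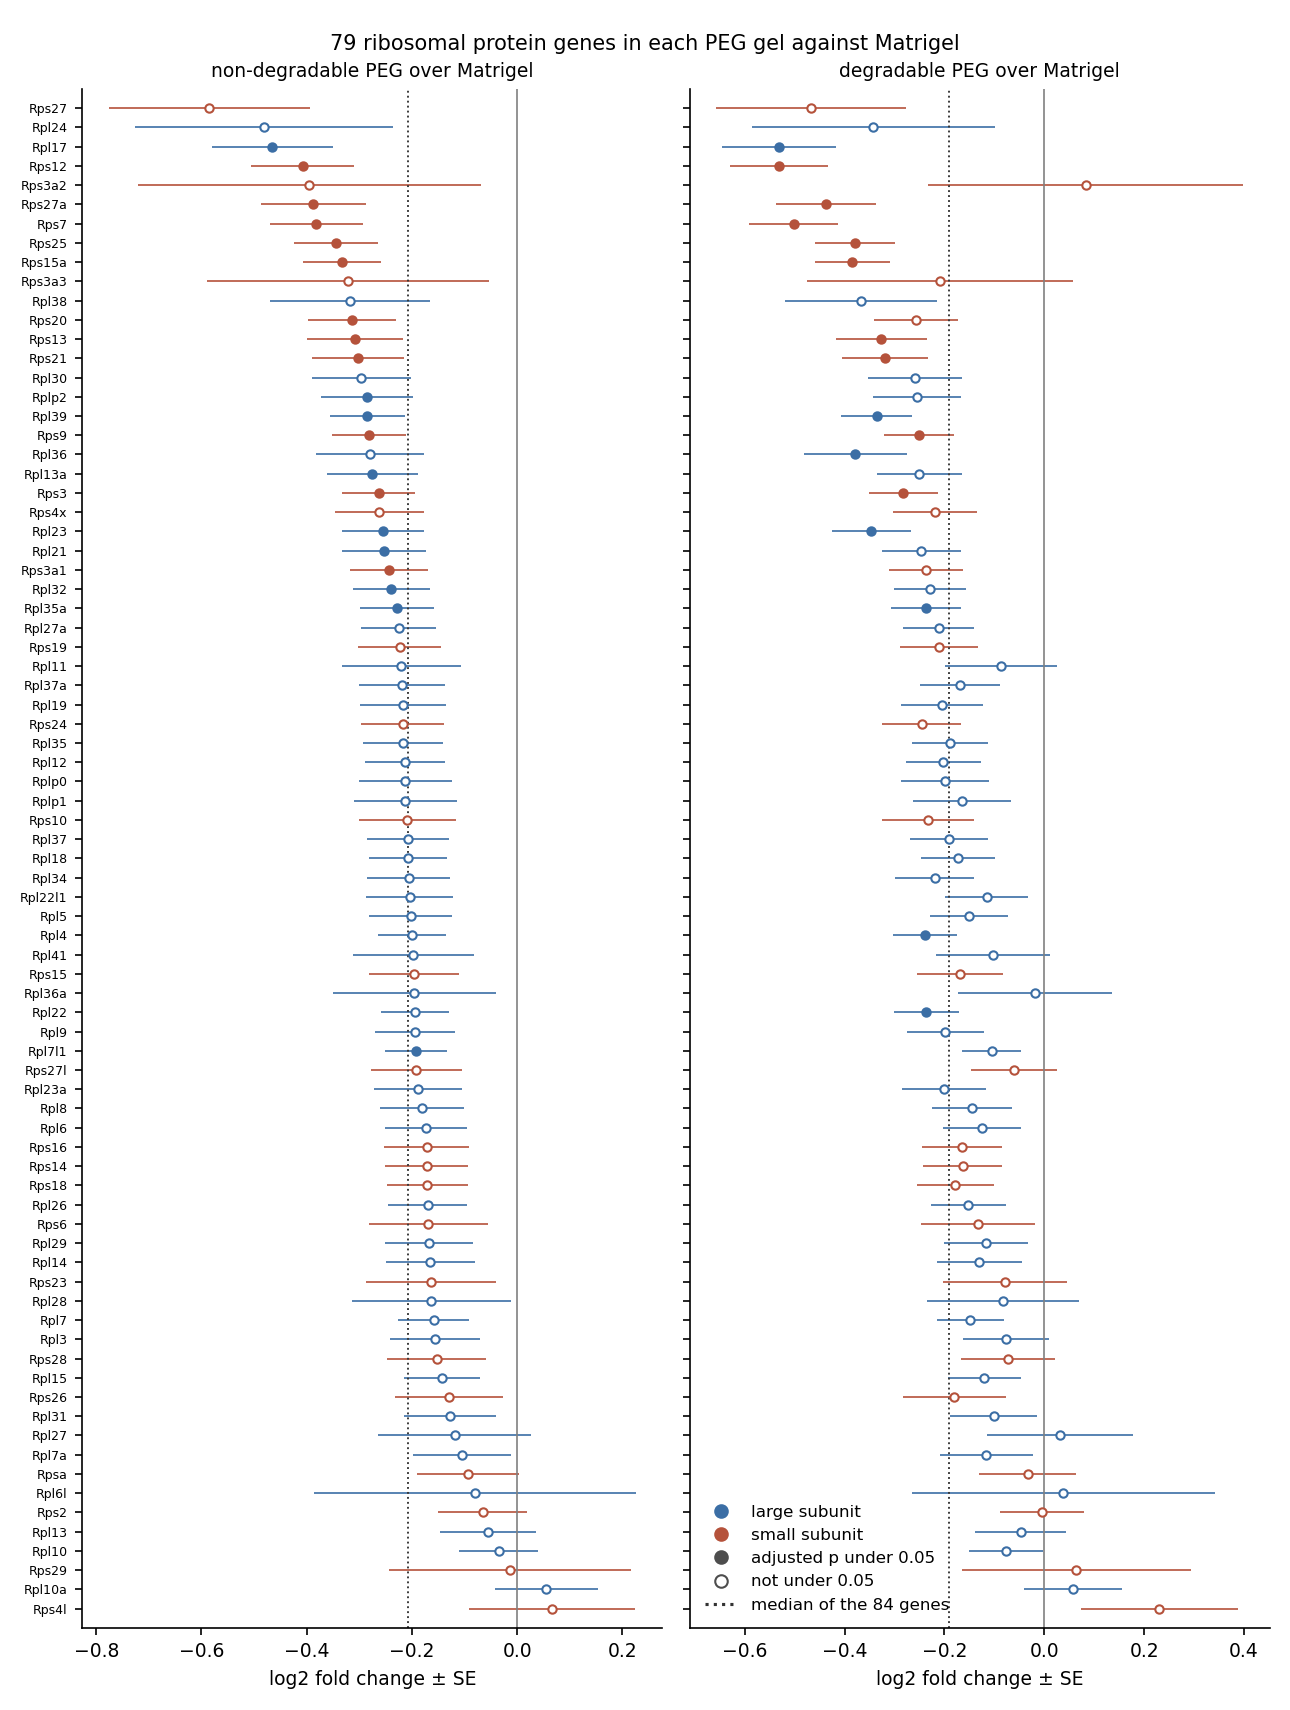
Log2 fold change ± SE of 79 of the 84 members, in non-degradable PEG over Matrigel and in degradable PEG over Matrigel, from 3 libraries a gel; filled points have an adjusted p under 0.05. Most points lie left of 0, around medians over all 84 members of -0.21 and -0.19 (0.0036 and 0.0075 with library sizes from the members' own counts), with 20 of the 79 points filled for non-degradable and 16 for degradable PEG.

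Among abundant genes the members formed a narrow group. The 54 members that averaged 100 CPM or more all had log2 fold changes below 0 in each PEG gel against Matrigel at the main scaling, with medians of -0.21 in non-degradable and -0.20 in degradable PEG and SDs of 0.0665 and 0.0910. The 2666 tested genes of that abundance had medians of -0.04 and -0.06 and SDs of 0.444 and 0.461. Called lower were 17 of the 54 (31.5%) in non-degradable PEG and 12 (22.2%) with degradable PEG, against 18.5% and 11.2% of the 2666 genes called, 276 and 158 of them lower. Of the other 30 members 5 (16.7%) and 6 (20%) were called lower, against 16.8% and 12.2% of all tested genes called, 7.13% and 4.79% lower. Without degradable PEG replicate 2 the counts of the 54 were 36 and 32, where 27.2% and 11% of the 2666 genes were called. That library was picked by the members' own share of reads, and each other leave-out called fewer of the 84 members than this one. With the replicate block 24 of the 54 and 9 of the 30 were lower in non-degradable PEG. With that block 27.1% of the 2666 genes and 26.1% of all tested genes were called. In degradable PEG the block gave 17 of the 54 and 7 of the 30, against 18.1% of the 2666 genes and 18.7% of all tested genes.

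**Figure D3:**
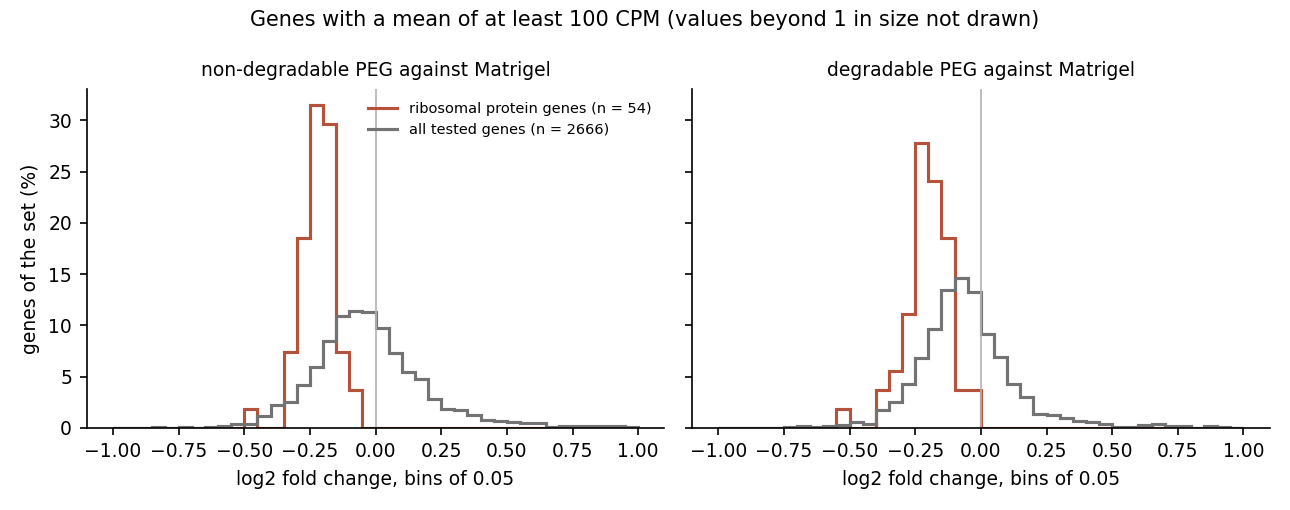
Percent of genes per bin of log2 fold change, for the 54 ribosomal protein genes and all 2666 tested genes that averaged 100 CPM or more, in each PEG gel over Matrigel. The ribosomal protein genes form a narrow peak around -0.21 in non-degradable and -0.20 in degradable PEG, inside a wider distribution with medians of -0.04 and -0.06; library sizes from the members' own counts would move the peak to about 0.

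Of the 35 small subunit genes 13 (37.1%) were lower with non-degradable PEG and 11 (31.4%) with degradable PEG, with medians of -0.22 and -0.21. Of the 49 large subunit genes 9 (18.4%) were lower with non-degradable PEG and 7 (14.3%) with degradable PEG, with medians of -0.20 and -0.17. Of all tested genes 16.8% and 12.2% were called in either direction, and 7.13% and 4.79% were called lower. The large subunit had 26 lower with non-degradable and 22 with degradable PEG, and the small subunit 17 and 16, without degradable PEG replicate 2. In those fits 21.5% and 9.95% of all tested genes were called. With the replicate block 18 large and 15 small subunit genes were lower in non-degradable PEG, where 26.1% of all tested genes were called. In degradable PEG 11 large and 13 small subunit genes were lower with it, where 18.7% were called. The difference between the subunits was not tested.

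Rps12 (ENSMUSG00000061983, chr10:23785183-23787275, minus strand), a protein in the head of the small subunit, had 45.8, 36.9 and 35.9 CPM in non-degradable PEG and 37.3, 38.5 and 33.1 CPM in degradable PEG, against 52.5, 50.9 and 54.0 CPM in Matrigel. All 6 PEG libraries were below all 3 Matrigel libraries. The log2 fold change was -0.41 ± 0.0979 (SE, edgeR adjusted p = 0.0170) in non-degradable PEG and -0.53 ± 0.0982 (adjusted p = 0.00509) in degradable PEG. Its tract is the first of those printed above. Of the windows of its transcript, described below with the processed copies, 9.89% occur in no other annotated gene, so its level is uncertain.

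Rps7 (chr12:28630854-28635953, minus strand), a small subunit protein that can also bind the p53 regulator Mdm2, had 59.9, 50.9 and 46.4 CPM in non-degradable PEG and 47.4, 49 and 48.2 CPM in degradable PEG, against 68.7, 71.0 and 65.1 CPM in Matrigel. Non-degradable PEG replicate 1 was the highest of the PEG libraries and still below Matrigel. The log2 fold change was -0.38 ± 0.0885 (adjusted p = 0.0144) in non-degradable PEG and -0.50 ± 0.0887 (adjusted p = 0.00388) in degradable PEG.

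Rpl17, which lines the exit tunnel of the large subunit, had 149.7, 109 and 110.2 CPM in non-degradable PEG and 117, 117 and 118 CPM in degradable PEG, against 185, 169 and 155 CPM in Matrigel. No PEG library reached the lowest Matrigel library, and non-degradable PEG replicate 1 came nearest. Rpl17 had a log2 fold change of -0.47 ± 0.115 (adjusted p = 0.0192) in non-degradable PEG and -0.53 ± 0.115 (adjusted p = 0.0121) in degradable PEG.

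Rps27a (chr11:29545846-29548109, minus strand), made as a fusion with ubiquitin, had 45.5, 47.4 and 38.6 CPM in non-degradable PEG and 41.7, 44.4 and 40.8 CPM in degradable PEG, against 53.0, 65.0 and 53.9 CPM in Matrigel. The PEG libraries did not overlap Matrigel, in which replicate 2 was the highest. Rps27a had a log2 fold change of -0.39 ± 0.0994 (adjusted p = 0.0226) in non-degradable PEG and -0.44 ± 0.0995 (adjusted p = 0.0156) in degradable PEG.

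Rps25 (chr9:44407139-44410427, plus strand), which some viral mRNAs need to start translation without a cap, had 138, 141 and 124 CPM in non-degradable PEG and 126, 139 and 128 CPM in degradable PEG, against 161, 187 and 164 CPM in Matrigel. Rps15a (chr7:118104372-118116188, minus strand), another small subunit protein, had 255, 271 and 237 CPM in non-degradable PEG and 239, 260.0 and 238 CPM in degradable PEG, against 311, 341 and 309 CPM in Matrigel. For both genes every PEG library was below every Matrigel library. The log2 fold change of Rps25 was -0.34 ± 0.0799 in non-degradable PEG (adjusted p = 0.0144) and -0.38 ± 0.0800 in degradable PEG (adjusted p = 0.0107). That of Rps15a was -0.33 ± 0.0745 in non-degradable PEG (adjusted p = 0.0121) and -0.38 ± 0.0745 in degradable PEG (adjusted p = 0.00672).

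**Figure D4:**
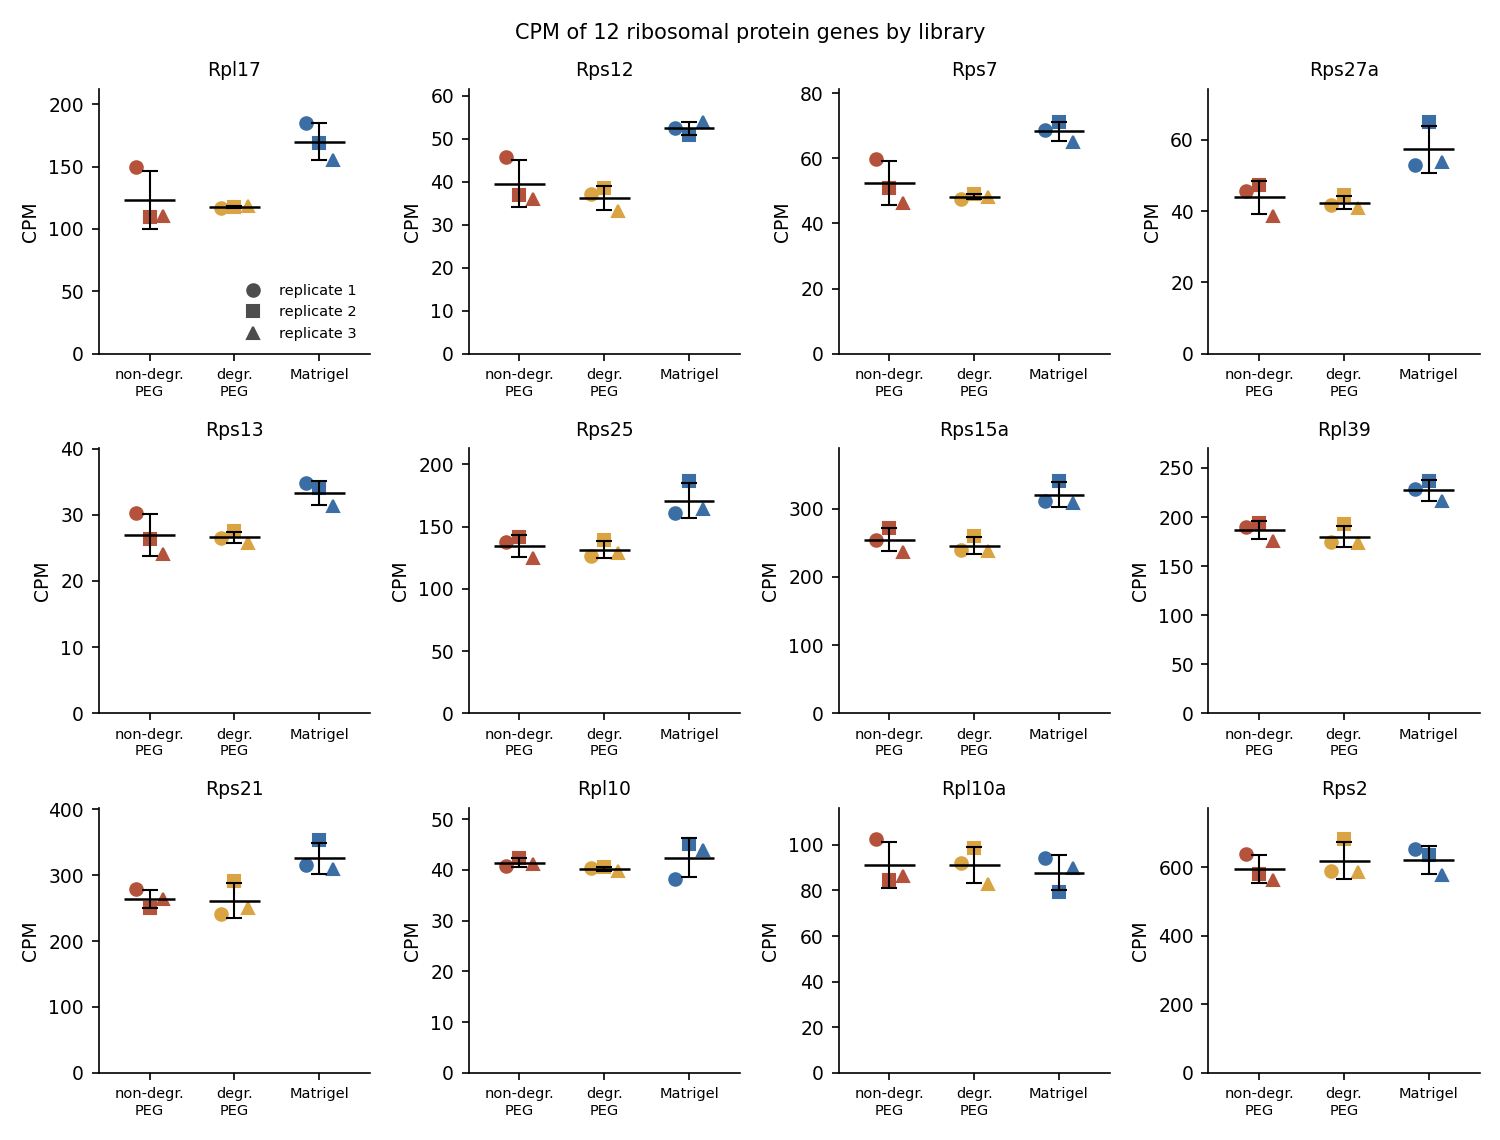
CPM of 12 members in each library of non-degradable PEG, degradable PEG and Matrigel, with bars at the mean ± SD of 3 libraries. Rpl17, Rps12, Rps7, Rps27a, Rps13, Rps25, Rps15a, Rpl39 and Rps21 lie lower in PEG than in Matrigel (with library sizes from the members' own counts the test called Rps12 and Rps7 alone, and these in degradable PEG), while the libraries of Rpl10, Rpl10a and Rps2 overlap between PEG and Matrigel; Rps13, Rps21, Rpl10a and Rps2 were picked after their values were seen.

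The other members lower in non-degradable PEG included Rps20, Rps13, Rps21, Rplp2, Rpl39, Rps9, Rpl13a, Rps3, Rpl23, Rpl21, Rps3a1, Rpl32, Rpl35a and Rpl7l1. In degradable PEG they included Rpl36, Rpl23, Rpl39, Rps13, Rps21, Rps3, Rps9, Rpl4, Rpl22 and Rpl35a, of which Rpl36 and Rps13 had adjusted p-values of 0.0557 and 0.0606 without degradable PEG replicate 2. Rpl39, a small protein of the exit tunnel, averaged 186 ± 9.19 CPM in non-degradable PEG and 179.9 ± 10.8 CPM in degradable PEG, against 227 ± 10.4 CPM in Matrigel (SD, n = 3 each; edgeR adjusted p = 0.0198 in non-degradable and 0.0106 in degradable PEG). Rps3a1 has close copies in Rps3a2 and Rps3a3, so its value is uncertain.

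The members with the flattest values, singled out after these were seen, were of both subunits. Rpl10a, of the mobile L1 stalk, had 103, 84.5 and 86.3 CPM in non-degradable PEG and 92.2, 98.4 and 83.0 CPM in degradable PEG, against 94.2, 79.2 and 89.7 CPM in Matrigel. The gels overlapped, at log2 fold changes of 0.06 ± 0.0975 (adjusted p = 0.739) in non-degradable and 0.06 ± 0.0976 (adjusted p = 0.749) in degradable PEG. Rps2, near the mRNA entry of the small subunit, had -0.07 ± 0.0848 in non-degradable and -0.0045 ± 0.0848 in degradable PEG. Rpl10, which joins the large subunit late in its assembly, had -0.04 ± 0.0744 and -0.08 ± 0.0745. Windows found in no other annotated gene made up 11.9% of the transcript of Rpl10a, 21.0% of Rps2 and 7.87% of Rpl10. The values of these 3 genes are therefore uncertain too. Rpsa, also described as a laminin receptor precursor, averaged 587 ± 29.1 CPM in non-degradable PEG and 612 ± 74.8 CPM in degradable PEG, against 627 ± 59.4 CPM in Matrigel (SD, n = 3 each; edgeR adjusted p = 0.543 and 0.861).

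With each library scaled by the summed counts of the 84 members, the fit shows which members departed from the family. In it 0 members were called in non-degradable PEG against Matrigel by edgeR (23.3% of all tested genes called) and 2 in degradable PEG against Matrigel (20.6% called), and the median of all genes moved to 0.21 and 0.19. The 2 were Rps12, at a log2 fold change of -0.33 ± 0.0964 (adjusted p = 0.0347), and Rps7, at -0.30 ± 0.0920 (adjusted p = 0.0432). Windows found in no other annotated gene made up 9.89% of the Rps12 transcript and 29.7% of that of Rps7, so both values are uncertain. Rpl10a, at 0.26 in each PEG gel, had an adjusted p of 0.0559 in non-degradable and 0.0661 in degradable PEG. Such windows made up 11.9% of the Rpl10a transcript, so its value is uncertain as well.

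The stalk of the large subunit, which binds translation factors, is made of Rplp0, Rplp1 and Rplp2, with Rpl12 at its base. Rplp0 had 1882, 1636 and 1773 CPM in non-degradable PEG and 1704, 1945 and 1692 CPM in degradable PEG, against 2252, 1924 and 1956 CPM in Matrigel. Rplp2 had 306, 284 and 274 CPM in non-degradable PEG and 275, 319.6 and 287 CPM in degradable PEG, against 334, 391 and 328 CPM in Matrigel. Rplp2 was below Matrigel in every PEG library, while for Rplp0 degradable PEG replicate 2 was above the lowest Matrigel library.

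Rplp2 was lower in non-degradable PEG, at -0.29 ± 0.0873 (adjusted p = 0.0456), and in degradable PEG it was at -0.26 ± 0.0873 (adjusted p = 0.0829). In non-degradable PEG the log2 fold change was -0.21 for Rplp0, -0.21 for Rplp1 and -0.21 for Rpl12 (adjusted p = 0.120, 0.159 and 0.0751), and Rpl12 had an adjusted p of 0.0352 with the replicate number as a block. In degradable PEG it was -0.20 for Rplp0, -0.16 for Rplp1 and -0.20 for Rpl12. Rpl5 and Rpl11 carry the 5S ribosomal RNA into the central protuberance and can bind Mdm2. Rpl5 was at -0.20 ± 0.0783 in non-degradable PEG (adjusted p = 0.0974, and 0.0466 with the replicate block) and at -0.15 in degradable PEG (adjusted p = 0.241). Rpl11 was at -0.22 ± 0.113 in non-degradable PEG (adjusted p = 0.202) and at -0.09 in degradable PEG (adjusted p = 0.668).

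Some members have a paralog. Rpl22 and Rpl22l1 are such a pair, and in mice Rpl22 is known to hold down Rpl22l1. Rpl22 had 370.0, 360.5 and 349 CPM in non-degradable PEG and 330.1, 371 and 347 CPM in degradable PEG, against 416, 413 and 405 CPM in Matrigel. Rpl22l1 had 84.5, 84.1 and 74.7 CPM in non-degradable PEG and 78.2, 93.6 and 87.0 CPM in degradable PEG, against 88.9, 99.1 and 92.3 CPM in Matrigel. No PEG library of Rpl22 reached Matrigel, and Rpl22l1 in degradable PEG replicate 2 did.

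Rpl22 was lower in degradable PEG, at -0.24 ± 0.0646 (adjusted p = 0.0360), and was at -0.19 ± 0.0646 in non-degradable PEG (adjusted p = 0.0604, and 0.0439 with the replicate block). The log2 ratio of Rpl22l1 to Rpl22 within a library was -2.15 ± 0.0644 in non-degradable PEG, -2.02 ± 0.0498 in degradable PEG and -2.14 ± 0.0833 in Matrigel (SD, n = 3 each). The PEG gels did not overlap in it, at a difference of -0.13 (exact two-sided permutation p = 0.1), and each PEG gel overlapped Matrigel (p = 1 for non-degradable and 0.2 for degradable PEG).

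Rps27l, a paralog of Rps27 that p53 can induce, had 126, 128 and 124 CPM in non-degradable PEG and 124, 154 and 135 CPM in degradable PEG, against 144, 155 and 133 CPM in Matrigel. Rps27 itself had 1.74, 1.37 and 1.33 CPM in non-degradable PEG and 1.81, 1.61 and 1.40 CPM in degradable PEG, against 2.02, 2.19 and 2.44 CPM in Matrigel. All PEG libraries of Rps27 were below Matrigel, at -0.59 ± 0.191 in non-degradable PEG (edgeR adjusted p = 0.0570, and 0.0394 with the replicate block) and -0.47 ± 0.190 in degradable PEG (adjusted p = 0.140).

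Of the 50-base windows of the Rps27 transcript 1.35% occur in no other annotated gene, so its level is uncertain. The log2 ratio of Rps27l to Rps27 was 6.42 ± 0.211 in non-degradable PEG, 6.43 ± 0.284 in degradable PEG and 6.02 ± 0.219 in Matrigel (SD, n = 3 each). Non-degradable PEG did not overlap Matrigel, at a difference of 0.40 (exact two-sided permutation p = 0.1). Degradable PEG did, at 0.41, and the PEG gels differed by -0.0053 (exact permutation p = 0.3 and 1).

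Rpl7l1, a relative of Rpl7 with a role in ribosome assembly, was lower in non-degradable PEG, at 154 ± 3.61 CPM, against 176 ± 6.61 CPM in Matrigel (SD, n = 3 each; log2 fold change -0.19 ± 0.0589, edgeR adjusted p = 0.0452), and its log2 ratio to Rpl7 differed by -0.03 (exact permutation p = 0.3). Rps4x, on the X chromosome, was at -0.26 ± 0.0842 in non-degradable PEG (adjusted p = 0.0545, and 0.0441 with the replicate block) and at -0.22 ± 0.0841 in degradable PEG (adjusted p = 0.119). Its processed copy Rps4l had 9.04 ± 0.421 CPM in non-degradable PEG and 10.1 ± 2.03 CPM in degradable PEG, against 8.62 ± 1.34 CPM in Matrigel (SD, n = 3 each). The log2 ratio of Rps4l to Rps4x was -6.27 in non-degradable PEG, -6.16 in degradable PEG and -6.61 in Matrigel, and degradable PEG did not overlap Matrigel (difference 0.45, exact permutation p = 0.1). The ratios of Rpl36al to Rpl36a overlapped between all gels (exact permutation p of 0.2 to 0.6). These are 15 ratio comparisons in all, and none can go below 0.1 before adjustment.

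Between the PEG gels 0 of 84 members were called by edgeR, against 1.28% of all tested genes, 0.814% higher and 0.464% lower. An unadjusted edgeR p under 0.05 was found for 0 members, against 2203 of all 14870 tested genes. DESeq2 called 0 members, against 3.51% of its tested genes. The median log2 fold change, non-degradable over degradable PEG, was -0.02 with an SD of 0.0783, and 0.04 without degradable PEG replicate 2. The gels did not overlap for 3 members, Rpl10, which was higher, and Rpl7l1 and Rps3a2, which were lower, against 19% of all tested genes, 10% higher and 9.02% lower. Over all 3 gels 17 of 84 members (20.2%) differed in the F test of the same edgeR fit, against 16.3% of all tested genes. Leaving out degradable PEG replicate 2 the count was 40, and the share of all tested genes in that fit is not given here.

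Per kb of transcript, the mean level over all libraries was highest for Rplp1 at 1835, Rpl4 at 1536 and Rpl32 at 1504 CPM per kb. It was lowest for Rpl6l at 0.396, Rps3a3 at 0.891 and Rpl24 at 0.892 CPM per kb. Rpl4 was lower in degradable PEG, at 2209.6 ± 91.3 CPM, against 2607 ± 109 CPM in Matrigel (SD, n = 3 each; edgeR adjusted p = 0.0350). Rpl32 was lower in non-degradable PEG, at 732 ± 32.5 CPM, against 864 ± 45.3 CPM in Matrigel (SD, n = 3 each; edgeR adjusted p = 0.0446). Rpl24 had 0.423 to 0.619 CPM in non-degradable PEG and 0.465 to 0.643 CPM in degradable PEG, against 0.665 to 0.779 CPM in Matrigel (edgeR adjusted p = 0.2 and 0.403). Of the windows of its transcript 18.3% occur in no other annotated gene, so its low level is uncertain.

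Ribosomal protein genes have many processed copies in the genome, and reads that align to several places are left out of such counts. Windows of 50 bases found in no other annotated gene made up 1.35% of the transcript of Rps27, 6.16% of Rpl5, 18.3% of Rpl24 and 83.5% of Rpl4. They made up 9.89% for Rps12, 21.3% for Rpl17, 28.1% for Rps27a and 29.7% for Rps7, so the levels of these members are uncertain. For Rps25 they made up 38.8% and for Rps15a 50.9%. Over the 80 protein-coding members this percentage correlated with log2 CPM per kb at Pearson 0.38 and Spearman 0.45. With the log2 fold change it correlated at Pearson 0.06 and Spearman -0.05 in non-degradable PEG and at Pearson 0.04 and Spearman -0.05 in degradable PEG. These are descriptions over genes that share libraries. The 24 members with at least 60% of own windows had medians of -0.21 in non-degradable and -0.20 in degradable PEG, with 8 (33.3%) and 7 (29.2%) called lower. The 29 members with under 25% had -0.19 and -0.15, with 4 (13.8%) and 5 (17.2%) called lower. Of all tested genes 16.8% and 12.2% were called in either direction, and 7.13% and 4.79% were called lower. Without degradable PEG replicate 2 the counts were 16 and 14 for the 24 members and 10 and 9 for the 29, where 21.5% and 9.95% of all tested genes were called. With the replicate block 11 of the 24 and 10 of the 29 were lower in non-degradable PEG, where 26.1% of all tested genes were called. In degradable PEG 9 of the 24 and 7 of the 29 were lower with it, where 18.7% were called.

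**Figure D5:**
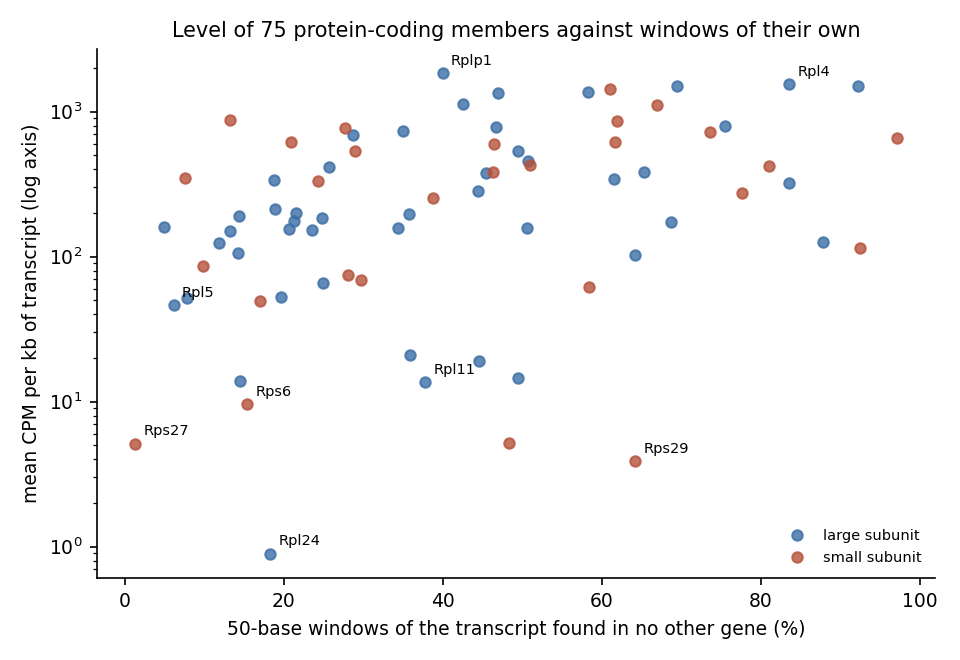
Mean CPM per kb of transcript (log axis) of 75 protein-coding members against the percent of 50-base transcript windows found in no other annotated gene, each point a gene over all 9 libraries. Levels are higher toward the right (Spearman 0.45 over all 80 such members), with Rps27 at 1.35% of own windows and Rpl24 lowest at 0.892 CPM per kb.

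The 33 members with a pyrimidine tract within 10 bases of a RefSeq start had medians of -0.21 in non-degradable and -0.20 in degradable PEG, with 8 (24.2%) and 6 (18.2%) called lower. The 27 matched members without one had medians of -0.20 and -0.17, with 7 (25.9%) in each called lower. Of all tested genes 16.8% and 12.2% were called, 7.13% and 4.79% lower. The split rests on annotated starts, so a member counted without a tract may carry one at another start. In the printed sequence of Rps25, counted without one, a run of C and T lies further before the annotated start. Leaving out degradable PEG replicate 2, the counts were 18 and 17 with a tract and 14 and 11 without one, where 21.5% and 9.95% of all tested genes were called. With the replicate block 13 with a tract and 11 without one were lower in non-degradable PEG, where 26.1% of all tested genes were called. In degradable PEG 8 with a tract and 7 without one were lower with it, where 18.7% were called. The difference was not tested.

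Of 18 other genes whose mRNAs are known to begin with such a tract, 4 (22.2%) were lower and 0 higher in each PEG gel against Matrigel, where 16.8% of all tested genes were called in non-degradable and 12.2% in degradable PEG, with medians of -0.16 in non-degradable and -0.15 in degradable PEG. Eef1a1, the elongation factor that brings tRNAs to the ribosome, averaged 6828 ± 359 CPM in non-degradable PEG and 6834 ± 86.4 CPM in degradable PEG, against 8312 ± 598 CPM in Matrigel (SD, n = 3 each; edgeR adjusted p = 0.0211 and 0.0258). Eef1b2, its exchange factor, was at -0.29 ± 0.0714 in non-degradable PEG (adjusted p = 0.0200) and at -0.31 ± 0.0714 in degradable PEG (adjusted p = 0.0177). Naca, which binds nascent chains, and the RNA-binding protein Hnrnpa1 were lower in non-degradable PEG, at -0.25 and -0.33 (adjusted p = 0.0443 and 0.0309). Tpt1 and the initiation factor Eif4b were lower in degradable PEG, at -0.26 and -0.25 (adjusted p = 0.0230 and 0.0260, and 0.0516 for Eif4b without degradable PEG replicate 2). Without that library 7 of the 18 were lower with non-degradable PEG and 6 with degradable PEG, where 21.5% and 9.95% of all tested genes were called. With the replicate block 7 were lower in each PEG gel, where 26.1% of all tested genes were called in non-degradable and 18.7% in degradable PEG. The ribosomal proteins outside the symbols used (4 were tested, among them Rack1, Fau and Rpl36al) had medians of -0.11 and -0.13, with Rack1 at -0.20 ± 0.0784 (adjusted p = 0.0997) and -0.20 ± 0.0784 (adjusted p = 0.133), and at adjusted p-values of 0.0359 and 0.0333 without degradable PEG replicate 2.

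Of 41 ribosome biogenesis factors Ltv1 and Tsr2, both of small subunit assembly, were lower in non-degradable PEG, at -0.35 and -0.36 (adjusted p = 0.00622 and 0.0432). Sbds, which helps release the large subunit for use, was higher in degradable PEG, at 0.25 (adjusted p = 0.0242), and the list had medians of -0.09 in non-degradable and 0.03 in degradable PEG. In non-degradable PEG 5 of the 41 were lower without degradable PEG replicate 2 and 6 with the replicate block. With that block 2 were higher and 2 lower in degradable PEG. Of 14 genes of RNA polymerase I and its factors Ubtf was lower in non-degradable PEG, at -0.48 ± 0.149 (adjusted p = 0.0479, 0.0556 without degradable PEG replicate 2 and 0.00103 with the replicate block), with medians of -0.0030 and 0.06. Of 77 mitochondrial ribosomal proteins 4 were lower in non-degradable PEG (Mrpl13, Mrpl49, Mrpl11 and Mrpl18) and 1 in degradable PEG (Mrpl49, at -0.32, adjusted p = 0.00753), with medians of -0.10 and -0.02. These counts were 9 and 2 without degradable PEG replicate 2, and 8 and 2 with the replicate block. Of 7 tested genes encoded by the mitochondrion mt-Co1 was higher in non-degradable PEG, at 0.55 ± 0.136 (adjusted p = 0.0201), and 5 of the 7 were higher with the replicate block. In the fit of all 9 libraries the shares called in these 4 lists were below those of all tested genes (16.8% in non-degradable and 12.2% in degradable PEG). Without degradable PEG replicate 2 the latter were 21.5% and 9.95%, and with the replicate block 26.1% and 18.7%.

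Host genes of small nucleolar RNAs, which guide changes to ribosomal RNA, are also known for pyrimidine tracts, and 8 were tested. Of all tested genes 16.8% were called in non-degradable and 12.2% in degradable PEG against Matrigel, and 1.28% between the PEG gels. Gas5 was lower in non-degradable PEG, at 185 ± 14.7 CPM, against 225 ± 4.60 CPM in Matrigel (SD, n = 3 each; edgeR adjusted p = 0.0354). Snhg5, Snhg12 and Snhg15 were higher in degradable PEG than in Matrigel, at 0.39, 0.37 and 0.30 (adjusted p = 0.00904, 0.0291 and 0.0224). Without degradable PEG replicate 2 Snhg12 had an adjusted p of 0.0556 in degradable PEG and Snhg8 was lower, at -0.36 (adjusted p = 0.0447), while in non-degradable PEG Snhg8 was lower, at -0.31 (adjusted p = 0.0301), and Snhg20 higher, at 0.51 (adjusted p = 0.0457). Between the PEG gels Snhg5 was lower in non-degradable PEG, at 46.2 ± 3.26 CPM, against 62.6 ± 4.95 CPM in degradable PEG (SD, n = 3 each; log2 fold change -0.44 ± 0.0798, edgeR adjusted p = 0.0292), and at an adjusted p of 0.0993 without degradable PEG replicate 2.

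Of 20 genes around mTORC1 2 (10%) were higher and 0 lower in each PEG gel, a share below the 16.8% and 12.2% of all tested genes called. With the replicate block 2 were higher and 3 lower in degradable PEG (25%, against 18.7% of all tested genes called). The lower ones were Mlst8, Sesn1 and Pdcd4 (edgeR adjusted p = 0.0275, 0.0391 and 0.0132). In non-degradable PEG 2 were higher and 1 lower with that block (15%, against 26.1%). Eif4ebp1, which binds the cap-binding factor Eif4e, was at 0.65 ± 0.114 in non-degradable PEG (adjusted p = 0.00326) and at 0.43 ± 0.114 in degradable PEG (adjusted p = 0.0303, and 0.0665 without degradable PEG replicate 2). Ddit4, an inhibitor of mTORC1, was at 0.60 ± 0.108 in non-degradable PEG (adjusted p = 0.00384) and at 0.42 ± 0.108 in degradable PEG (adjusted p = 0.0265, and 0.0853 without degradable PEG replicate 2). Without that library 0 of the 20 were called in degradable PEG and 3 were higher in non-degradable PEG, against 9.95% and 21.5% of all tested genes called. Of 18 initiation factors Eif4a2 was higher in each PEG gel, at 0.28 and 0.30 (adjusted p = 0.0173 and 0.0150), and no other passed the test.

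Myc, a transcription factor that drives ribosome production, averaged 271 ± 51.9 CPM in non-degradable PEG and 336 ± 56.5 CPM in degradable PEG, against 126 ± 6.51 CPM in Matrigel (SD, n = 3 each), with log2 fold changes of 1.10 ± 0.143 and 1.41 ± 0.144. Of 11 genes of its network 3 were higher (Myc, Mxd1 and Mxi1) and 2 lower (Mxd3 and Mxd4) in non-degradable PEG, and 1 was higher (Myc) and 1 lower (Mxd4) in degradable PEG. Of all tested genes 16.8% were called in non-degradable and 12.2% in degradable PEG. Mxd4, a repressor that shares the partner Max with Myc, was at -0.38 ± 0.0644 in non-degradable PEG (adjusted p = 0.00256) and at -0.50 ± 0.0645 in degradable PEG (edgeR adjusted p = 0.000666).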

How the data were processed

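The deposited tables hold raw counts of reads per Ensembl gene, 1 table per library. Per the submitters' processing notes, reads were trimmed with cutadapt 1.3, aligned to GRCm38 with STAR 2.4.2a and counted with HTSeq 0.6.1. The kit was TruSeq Stranded mRNA, per the labels' protocols. Neither the strand setting nor the annotation of the counting is stated in the sources used here, and overlapping genes are uncertain. Rows of HTSeq tallies (5 per table) were left out of library sizes.

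Symbols from the GRCm38 annotation matched 46005 of 46517 gene IDs. All 9 libraries entered 1 edgeR 4.0.16 quasi-likelihood fit by gel (R 4.3.3, TMM scaling, filterByExpr with a minimum count of 10), with Benjamini-Hochberg adjustment over 14870 genes and a threshold of 0.05. CPM uses the TMM-scaled library size, and the SE was taken from the log2 fold change and its F statistic. Exact permutation tests compared single values between gels. DESeq2 1.42.0, other scalings and filters, a replicate block and leaving out each library were alternatives. The fit was tested on simulated data.

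Equal replicate numbers in non-degradable PEG and Matrigel deviated together (correlations of 0.33, 0.18 and 0.19 over genes), so the number was taken to pair these libraries. This comes from the data, as the labels do not say what a number shares. The correlations of degradable PEG, given below, do not clearly set it apart. Named genes were those with the 6 largest changes per direction among members called, paralog pairs, stalk and central protuberance members, the most and least abundant per kb, and the leading genes of each list. Values of some single members are not reported here. Members and lists were chosen with earlier results of these data known.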

Additional observations from a re-analysis of the deposited data

How the results depend on the processing

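No member was called higher in any of 17 settings, and between the PEG gels 0 were called in all of them. The edgeR fit called 22 members with non-degradable PEG and 18 with degradable PEG, each against Matrigel, and 17 over all 3 gels. By comparison upper-quartile scaling called 11 (13.1%), 9 (10.7%) and 9, against 16.3% and 12.3% of all tested genes in non-degradable and degradable PEG. A filter of 10 CPM, which left 73 members, called 11 (15.1%), 10 (13.7%) and 11, against 15.5% and 9.73%. Library sizes from the members' own counts called 0, 2 and 0, against 23.3% and 20.6%. With the members' own counts the medians were 0.0036 in non-degradable and 0.0075 in degradable PEG, and Rpl7l1 turned to 0.0197 in non-degradable PEG. Fits of the compared gels alone called 41 (48.8%) in non-degradable and 11 (13.1%) in degradable PEG, against 23.0% and 10.1% of all tested genes. Over all 3 gels no filter called 26 and DESeq2's likelihood ratio test 30. With the replicate block 33 were called in non-degradable PEG, 24 in degradable PEG and 26 over all 3 gels. Deviations of equal numbers correlated at 0.26, 0.07 and 0.23 for degradable PEG and Matrigel, and at 0.29, 0.02 and 0.51 for the PEG gels. Of the 9 libraries 8 correlated best with a library of their own number in another gel, and the exception was non-degradable PEG replicate 2. These values do not clearly set degradable PEG apart from non-degradable PEG, and what the numbers share cannot be told from them. Of the members tested singly the block ended no call. Rplp2 gained one in degradable PEG (edgeR adjusted p = 0.0429), and Rpl12, Rpl22, Rpl5, Rps4x and Rps27 gained one in non-degradable PEG.

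Leaving out each library gave 0 to 43 calls in non-degradable PEG, 4 to 38 in degradable PEG and 2 to 40 over all 3 gels, with medians of -0.25 to -0.19, -0.26 to -0.14 and, between the PEG gels, -0.0676 to 0.0422. The difference in share between the PEG gels ran from -0.163 to 0.0815 percentage points, and was above 0 without degradable PEG replicate 2. The log2 ratio of Rpl22l1 to Rpl22 in non-degradable PEG against Matrigel ran from -0.0538 to 0.0293, with 0.0254 without non-degradable PEG replicate 3 and 0.0293 without Matrigel replicate 2. That of Rps27l to Rps27 between the PEG gels ran from -0.17 to 0.117, with 0.117 without non-degradable PEG replicate 1, 0.0737 without degradable PEG replicate 2 and 0.0797 without degradable PEG replicate 3. The cause was not tested. With 3 libraries a gel the smallest called fall in non-degradable PEG was 12.5%.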
